A study of Mus musculus with 4 samples.

Results

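The mitochondrial oxidative phosphorylation genes were taken from the gene names printed in the array files: every gene probe whose name began with Nduf, Uqcr, Atp5, Cox4, Cox5, Cox6, Cox7 or Cox8, or that was named Sdha, Sdhb, Sdhc, Sdhd, Cyc1 or Cycs. This rule gave 138 probes of 94 genes, among 41174 gene probes of 27343 genes on each array. Of the 94 genes, 37 are named for complex I, 4 for complex II, 9 for complex III, 18 for complex IV and 15 for complex V, and 1 encodes cytochrome c. The remaining 10 are no subunits: Ndufaf1 to Ndufaf7 encode complex I assembly factors, Atp5s and Atp5sl are listed by RefSeq as Dmac2l and Dmac2, and Atp5c1-ps is a pseudogene.

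In oxidative phosphorylation, complexes I and II pass electrons from NADH and succinate to ubiquinone, complex III hands them on to cytochrome c, and complex IV reduces oxygen. Complexes I, III and IV pump protons across the inner mitochondrial membrane, and complex V, the ATP synthase, uses that gradient to make ATP. A conserved core of subunits carries the redox centres or the rotary machinery, and a larger number of supernumerary subunits surrounds it. Most subunits are encoded in the nucleus, some in tissue isoforms used in heart and skeletal muscle. In the intestine, differentiated surface cells are known for their oxidative metabolism of butyrate, and crypt base cells for their proliferation.

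RNA from mouse colon was hybridised to 4 dual-colour arrays, each holding 2 RNAs labelled with Cy3 and Cy5. On 2 arrays the distal colon of a Myh11CreErt2/Rspo3 fl/fl mouse (Rspo3 KO) was set against that of a Myh11CreErt2/Rspo3+/+ littermate (control), so that the controls carried the Cre and received tamoxifen too. The animals were male C57BL/6 mice 6 to 8 weeks old, tamoxifen was injected at 4 mg per 25 g of body weight in 200 µl of oil, once or on up to 3 consecutive days, and colons were taken 2 weeks later. Each array held a different pair of mice (n = 2 pairs), with Rspo3 KO RNA in Cy5 for pair 1 and in Cy3 for pair 2. The Cre acts in cells that express Myh11, smooth muscle and myofibroblasts, whereas the RNA came from tissue of many cell types: the labels give distal colon, 1 passage of the methods speaks of isolated epithelium, and smooth muscle markers were measured in it. On the other 2 arrays, epithelial (ESA+) cells of Axin2CreErt2/Rosa26-tdTomato mice were sorted 24 h after tamoxifen into labelled (Axin2+) and unlabelled (Axin2-) cells. Cells of 3 mice were pooled, and both arrays held the same pair of RNAs with the dyes exchanged, which is 1 replicate. This comparison therefore has no test, and differences between its arrays are technical.

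Per channel, the software placed 53.1% to 60.3% of the 43379 gene spots well above background. Neither Rspo3 probe was well above background on the array of pair 1, and on that of pair 2 the one that was gave a log2 ratio of 0.17, so that the loss of Rspo3 was not shown on these arrays. Rspo3 KO below means the channel labelled so. Axin2 was higher in Axin2+ cells, with log2 ratios of 1.35 and 1.30. Of 7 smooth muscle markers, 6 were measured in distal colon RNA and 4 in sorted epithelium, where all 7 epithelial markers were measured. In distal colon RNA, fewer cells of a type and less RNA per cell cannot be told apart.

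A probe on these arrays is a single 60-base oligonucleotide. The probes of the 2 members with the lowest ratios in Axin2+ cells, of a supernumerary complex I subunit that was also lower, and of Sdha, which was not, are shown because these readouts rest on them. For Ndufa1 it is the probe behind the Rspo3 KO value, and the brighter one behind the Axin2 value is not shown (array sequence, positions on mm9, 5′ to 3′).
Cox7a1 (chr7:30970337-30970948, plus strand, across an intron): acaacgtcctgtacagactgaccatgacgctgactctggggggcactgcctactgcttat
Cycs (chr6:50515255-50515314, minus strand): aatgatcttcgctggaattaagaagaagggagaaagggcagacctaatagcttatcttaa
Ndufa1 (chrX:34729873-34729932, minus strand): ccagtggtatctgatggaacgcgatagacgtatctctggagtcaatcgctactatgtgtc
Sdha (chr13:74465756-74465815, minus strand): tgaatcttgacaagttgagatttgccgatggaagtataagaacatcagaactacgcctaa

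Nuclear genes of the respiratory chain are known targets of nuclear respiratory factor 1 (NRF-1) and of the ETS factor GABP. In RefSeq promoters of build GRCm38.p6, from 250 bases before to 50 after a gene's start, 69 of the 84 subunit and cytochrome c genes had an entry. The NRF-1 core GCGCATGCG was found on either strand in the promoters of 9 of them (13%), against 1.95% of 27025 genes with a promoter. The ETS core CCGGAAG was found in 16 (23.2%), against 9.93% of all. The 250 bases before the start are shown for Cycs and Ndufa11, which hold the NRF-1 core, and for Cox7a1, which holds neither, with the matches in capitals. In Ndufa11 the matches on the 2 strands overlap.
Cycs (chr6:50566570-50566819, minus strand): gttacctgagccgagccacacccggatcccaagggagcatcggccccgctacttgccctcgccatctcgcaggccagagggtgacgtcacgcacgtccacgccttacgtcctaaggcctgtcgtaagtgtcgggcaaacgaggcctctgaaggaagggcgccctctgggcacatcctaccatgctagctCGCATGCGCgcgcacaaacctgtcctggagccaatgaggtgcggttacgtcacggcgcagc
Ndufa11 (chr17:56717512-56717761, plus strand): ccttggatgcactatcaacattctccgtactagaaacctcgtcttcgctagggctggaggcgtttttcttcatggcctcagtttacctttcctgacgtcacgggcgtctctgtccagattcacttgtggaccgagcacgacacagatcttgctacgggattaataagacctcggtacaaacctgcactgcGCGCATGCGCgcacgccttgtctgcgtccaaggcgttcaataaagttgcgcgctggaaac
Cox7a1 (chr7:30183921-30184170, plus strand): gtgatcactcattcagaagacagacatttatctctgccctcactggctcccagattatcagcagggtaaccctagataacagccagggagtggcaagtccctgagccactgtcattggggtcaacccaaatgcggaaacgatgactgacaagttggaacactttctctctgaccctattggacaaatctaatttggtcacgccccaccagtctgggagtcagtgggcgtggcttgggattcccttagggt

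The first comparison asked how epithelial cells that had recently expressed Axin2, a Wnt target of the crypt base, differ from the rest of the epithelium. Most oxidative phosphorylation genes were lower in Axin2+ cells, by small amounts. Of the 94 members, 91 were measured, meaning that on each array the brightest probe cleared the background limit in Cy3, Cy5 or both. On both arrays 69 of them (75.8%) were lower in Axin2+ cells and 9 were higher, whereas over all 15890 measured genes 41.7% were lower and 41.1% higher. The median log2 ratio of the members was -0.25 on array 1 and -0.22 on array 2, against 0.02 and -0.03 for all genes. The 3 unmeasured members were the isoforms Cox4i2, Cox7b2 and Cox8c, which were above background in no channel.

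Past 1.5-fold, the threshold of the study's methods, with both arrays alike, 12 members (13.2%) were lower and none was higher. Over all measured genes 6.92% were lower and 7.87% higher at that threshold. The count depended on the processing. With the software's own log ratio 23 members (25.3%) and 15.4% of all genes were lower. With median centring in place of loess 3 members (3.30%) and 3.71% of all genes were, so that the count then lay near the background. The members' median of the mean over both arrays was then -0.59, against -0.03 for all genes. The count also asks for the same direction on both arrays, which most members with a mean past 1.5-fold lower did not meet. Without loess the 2 arrays thus differed in direction for most of those members. The 12 were Ndufa1, Ndufa11 and Ndufc1 of complex I, Uqcrb and Uqcrq of complex III, Cycs, and Cox6a1, Cox6c, Cox7a1, Cox7a2, Cox7c and the dim Cox8b of complex IV. None of them carries a metal centre of its complex, except cytochrome c, which holds a haem. The surface colonocyte markers were lower in Axin2+ cells at the same time, 7 of 8 past 1.5-fold with a median log2 ratio of -2.42, and all 7 proliferation markers were higher on both arrays, 6 past 1.5-fold. The part of this difference in cell state in the members' ratios was not tested.

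**Figure D1:**
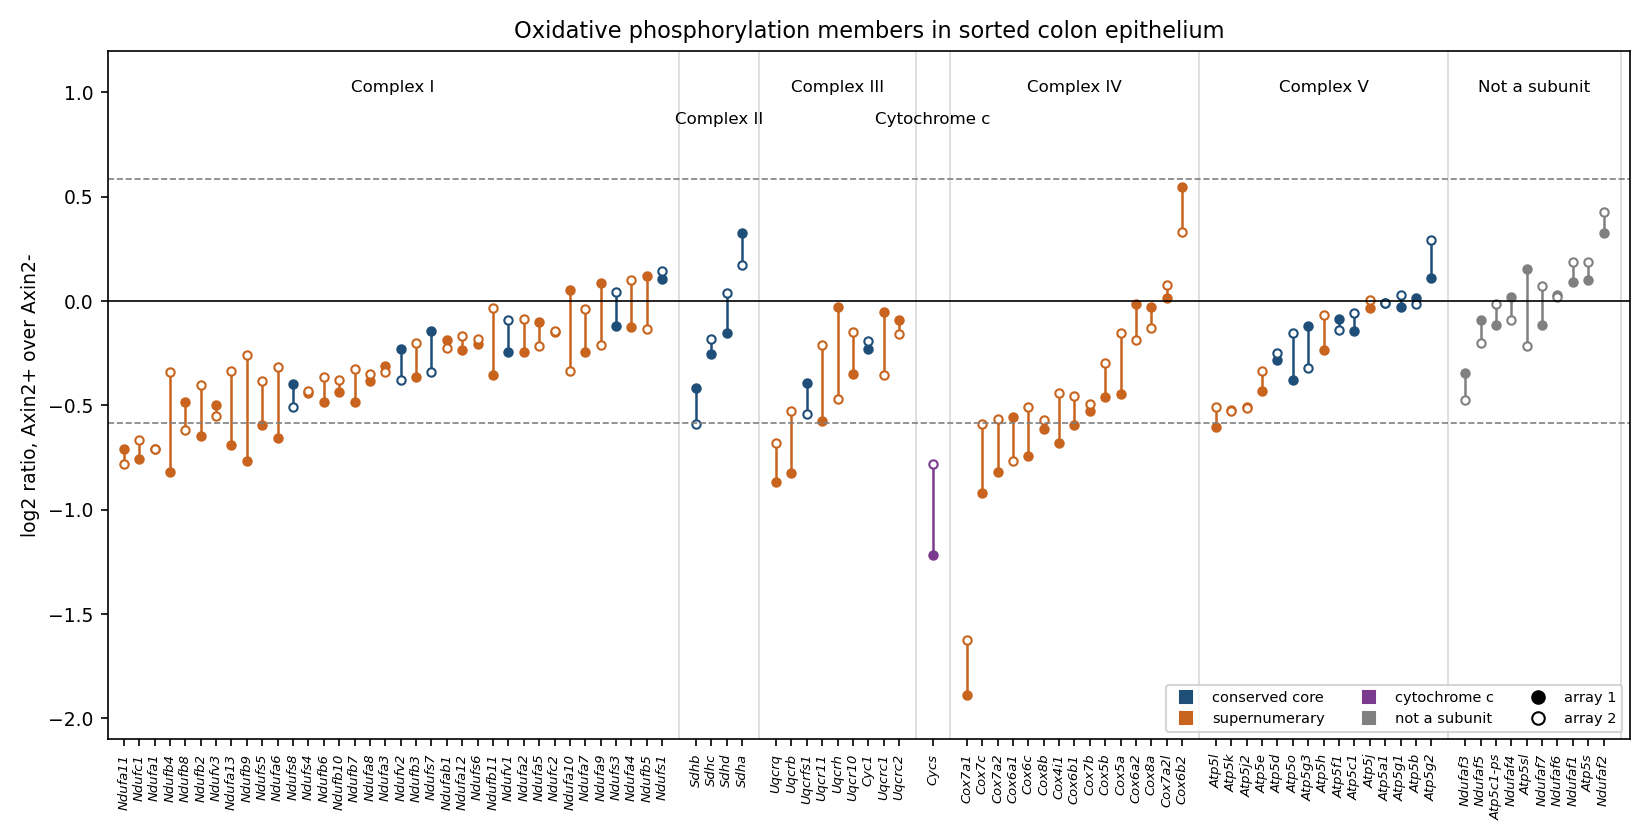
Log2 ratio of Axin2+ over Axin2- cells (vertical axis) for the measured members, ordered within each complex, 1 of them left out of the plot. Filled and open points are arrays 1 and 2 of the same RNA pair, joined by a line, and dashed lines mark 1.5-fold. Most points lie below 0, Cox7a1 lies lowest at -1.89 and -1.62, and no member lies above the upper line on both arrays.

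Complex IV showed the lowest median of the complexes, -0.53 over 15 measured members, and the widest range. Cox7a1, the isoform of subunit 7a best known from heart and skeletal muscle, was the lowest of all members, with log2 ratios of -1.89 and -1.62. That is a 3.37-fold lower level in Axin2+ cells. Its widely expressed counterpart Cox7a2 was at -0.82 and -0.56, and Cox7a2l, a supercomplex assembly protein related to them, at 0.01 and 0.08. The family thus spread from more than 3-fold lower to no difference of size.

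Cox7c, a small membrane subunit, followed with -0.92 and -0.59. The liver-type isoform Cox6a1 was at -0.56 and -0.77, and its muscle-type counterpart Cox6a2 at -0.01 and -0.19. Cox6a2 was dim, with Cy5 signals of 133 and 127 scanner units against 172255 and 295880 for Cox6a1. Its ratios near 0 therefore do not show a difference between the isoforms. The subunit Cox6c was at -0.74 and -0.51. Both subunit 6b isoforms moved apart, Cox6b1 with -0.59 and -0.46 and the testis isoform Cox6b2 with 0.55 and 0.33, the highest value of any member. Cox8b, the muscle-type isoform of subunit 8, was not well above background in Axin2+ cells on either array. Its fitted ratio put it at least 1.51-fold lower there. Cox8b was as dim as Cox6a2, with Cy5 signals of 98 and 164 scanner units, so that this bound is not firm. Its widely expressed counterpart Cox8a was at -0.03 and -0.13. Cox4i1, the widely expressed subunit 4 isoform, was at -0.68 and -0.44.

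Cytochrome c itself, the product of Cycs, was the second lowest member, with -1.22 and -0.78. Its other 2 probes had mean log2 ratios of -0.76 and -0.88. All 3 probes of the gene were therefore lower in Axin2+ cells.

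Among the 9 complex III genes, each was lower on both arrays. Uqcrq was lowest with -0.87 and -0.68, followed by Uqcrb with -0.83 and -0.53, both small subunits. Uqcrfs1, the Rieske iron-sulphur protein, was at -0.39 and -0.54. The core proteins Uqcrc2, at -0.09 and -0.16, and Uqcrc1, at -0.05 and -0.35, and the cytochrome c1 gene Cyc1, at -0.23 and -0.19, were nearest 0. A second Uqcrq probe lying outside the first gave a mean of 0.04. It was far dimmer, with Cy5 signals of 134 and 128 scanner units against 55827 and 111042. So close to the background, it cannot show whether the difference holds.

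Complex I had a median of -0.30 over its 37 members, 30 lower on both arrays and 1 higher. The lowest were the supernumerary subunits Ndufa11 (-0.71 and -0.78), Ndufc1 (-0.76 and -0.67) and Ndufa1 (-0.71 and -0.71). The 1 member higher on both arrays was Ndufs1, which holds iron-sulphur clusters of the electron path, at 0.10 and 0.14. Ndufb5, a supernumerary subunit, was near 0 at 0.12 and -0.13. Ndufa4, named for complex I but known as a component of complex IV, was at -0.12 and 0.10.

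In complex II, Sdha, the flavoprotein that oxidises succinate, was higher on both arrays at 0.33 and 0.18 with its brightest probe, while its other probes had means of 0.04 and -0.14. Sdhb, its iron-sulphur partner, was lower at -0.42 and -0.59. The membrane anchors were at -0.25 and -0.18 for Sdhc and at -0.15 and 0.04 for Sdhd. The 4 genes of this complex thus did not move together.

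Complex V had the smallest median after complex II, -0.15 over 15 genes, and no member past 1.5-fold. Its lowest members were the membrane subunits Atp5l (-0.60 and -0.51), Atp5k (-0.52 and -0.53) and Atp5j2 (-0.51 and -0.51). The catalytic genes lay near 0, Atp5a1 (subunit alpha) at -0.01 and -0.01 and Atp5b (subunit beta) at 0.02 and -0.02 with its brightest probe and means of 0.15, 0.22 and 0.16 with its other 3. Atp5g1, Atp5g2 and Atp5g3 encode the same mature ring subunit c, and their ratios differed, from 0.11 and 0.29 for Atp5g2 through -0.03 and 0.03 for Atp5g1 to -0.12 and -0.32 for Atp5g3.

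After these values had been seen, the subunits were sorted by textbook role into 22 with a counterpart in bacterial enzymes and 61 supernumerary ones. The conserved core had a median log2 ratio of -0.14, with 14 of 22 lower on both arrays and none past 1.5-fold. Of the supernumerary subunits 58 were measured, with a median of -0.40, 51 lower on both arrays and 11 past 1.5-fold lower. All 18 complex IV genes, the complex with the lowest median, fell among the supernumerary ones. The role of a subunit and its complex therefore cannot be told apart in this split. Sequence was another description that the rule had not used: the 9 measured genes with the NRF-1 core in their promoter had a median of -0.52 and the 59 without it -0.27. The same medians were -0.40 for the 16 genes with the ETS core and -0.27 for the 52 without it.

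Of the 29 members with several measured probes, 9 had probes on both sides of 0 and none had probes past 1.5-fold on both sides. The 10 genes that are no subunit had a median of -0.03. Ndufaf2 was highest among them at 0.33 and 0.43, Atp5s followed at 0.10 and 0.19 and Ndufaf1 at 0.09 and 0.19, and Ndufaf3 was lowest at -0.34 and -0.47. Ndufaf5 was at -0.09 and -0.20, Atp5c1-ps at -0.12 and -0.02, and Ndufaf4, Ndufaf6, Ndufaf7 and Atp5sl had means between -0.04 and 0.02.

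**Figure D2:**
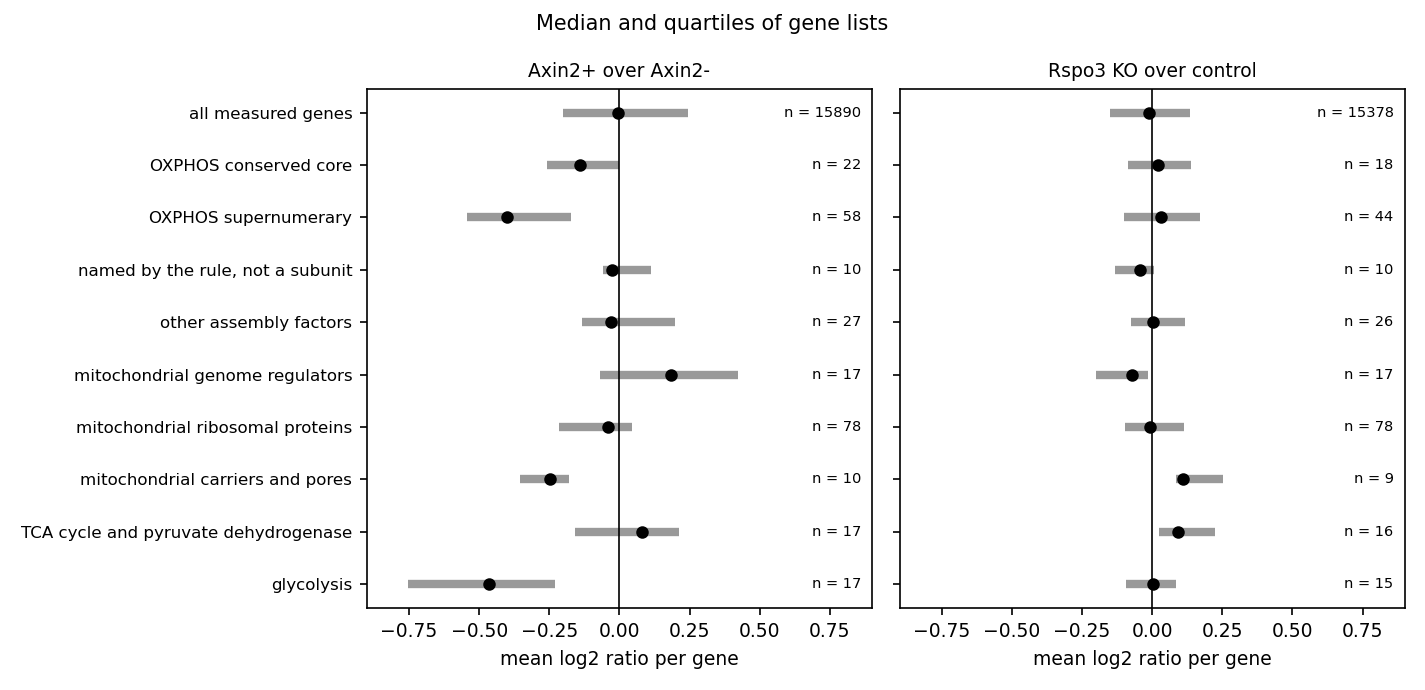
Median (point) and quartiles (bar) of the mean log2 ratio per gene (horizontal axis) for the members and for other gene lists, with the number measured, in each comparison. For Axin2+ over Axin2- cells, glycolysis (-0.47) and the supernumerary subunits (-0.40) lie lowest and the mitochondrial genome regulators (0.18) highest, and for Rspo3 KO over control every median lies between -0.07 and 0.11.

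Several other mitochondrial gene lists had medians nearer 0 or above it in Axin2+ cells. For 17 genes of the TCA cycle and pyruvate dehydrogenase the median was 0.08, with 10 higher and 6 lower on both arrays and none past 1.5-fold, from Ogdh at -0.51 to Suclg1 at 0.27. For 78 mitochondrial ribosomal protein genes it was -0.04, with 1 past 1.5-fold, Mrpl50 at 0.64, and Mrpl20 lowest at -0.58. For 17 genes that regulate or copy the mitochondrial genome it was 0.18, with 2 past 1.5-fold higher. These were Pprc1, a PGC-1-related coactivator, at 0.66 and 0.93, and Ssbp1, the mitochondrial single-strand DNA-binding protein, at 0.84 and 0.73, and the orphan receptor Esrra was lowest at a mean of -0.50. Assembly factors outside the naming rule had a median of -0.03 over 27 genes, with Lrpprc, a stabiliser of mitochondrial mRNAs, highest at 0.72 and Tmem126b lowest at -0.45.

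Glycolysis was lower as well, and the mitochondrial carriers had a median like that of the members. Of 17 glycolysis genes 14 were lower on both arrays, 6 past 1.5-fold, with a median of -0.47. The glucose transporter Slc2a1 was lowest at -1.13 and -1.56 and Pdk1 highest at a mean of 0.02. The 10 measured carriers and pores had a median of -0.25, with 8 lower on both arrays, from Slc25a20, the carnitine carrier, at -1.17 to the adenine nucleotide translocator Slc25a4 at 0.40. Subunits encoded in the mitochondrial genome lie outside the naming rule and were looked up after the other values were known. ND4 was at 1.05 and 0.62 and CYTB at 0.75 and 0.24, in the direction opposite to most nuclear subunits. The 2 ATP6 probes had means of 0.60 and 0.58 and the COX2 probe -0.12, but the array lists these 3 probes on chromosome 1, where a nuclear copy of mitochondrial DNA lies, so that the source of their signal cannot be told apart.

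The second comparison asked what the loss of stromal Rspo3 changed in the colon. No member passed limma's test of the log2 ratio against 0 in the 2 pairs, which 40 of 15378 measured genes (0.260%) passed at an adjusted p below 0.05. At an unadjusted p below 0.05 limma gave 3 members and 714 genes. The median log2 ratio of the 73 measured members was 0.07 in pair 1 and -0.15 in pair 2, against 0.00 and -0.02 for all genes. Past 1.5-fold and alike in both pairs, 1 member was higher and 2 were lower (1.37% and 2.74% of those measured), near the background of 1.85% and 2.47% of all genes.

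These 3 members are all subunits of complex IV. Cox7c was at 1.39 in pair 1 and 1.14 in pair 2 (mean 1.27 ± 0.18, SD, n = 2; adjusted p = 0.13 by limma), higher in both Rspo3 KO mice. Cox8b was at -0.93 and -1.18 (mean -1.05 ± 0.18, SD, n = 2; adjusted p = 0.26 by limma), and Cox6a2 at -0.75 and -0.66 (mean -0.71 ± 0.06, SD, n = 2; adjusted p = 0.70 by limma). The last 2 are the muscle-type isoforms of their subunits. Their spots were dim, with signals of 69 to 317 scanner units for Cox6a2 and 129 to 859 for Cox8b. The software still placed them well above background. Over the alternatives the mean ran from -1.34 to -0.37 for Cox6a2 and from -1.45 to -0.66 for Cox8b. Of 11 skeletal and heart muscle markers, 9 were measured in these pairs, with a median of 0.16. In both pairs 4 of them were higher and 1 was lower, and 4 went opposite ways. The 1 lower in both was Tnnt3, past 1.5-fold at -0.51 and -0.73. Of the 6 measured smooth muscle markers 5 were higher in both pairs, with a median of 0.25, and 1 went opposite ways. The creatine kinase Ckm was at -0.09 and 0.14. Of 8 adipocyte markers 4 were measured, with means from -0.41 to 0.76. Markers of immune cells differed as well. All 6 measured B cell markers were lower in both pairs, 4 past 1.5-fold, and limma called Ms4a1 (-2.75 and -2.27, adjusted p = 0.0119), while Cd79b was at -2.49 and -1.29 (adjusted p = 0.086 by limma). All 4 measured T cell markers were lower in both pairs, with a median of -0.40, and 6 of 7 macrophage markers were higher in both, with a median of 0.29. The part of such cells in the ratios of Cox8b, Cox6a2 and the other members was not tested.

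The call of Cox7c and Cox8b depended on the processing. With a background offset of 16 in place of 50, limma's adjusted p was 0.0372 for Cox7c and 0.050 for Cox8b, both under the threshold. In a fit over all 4 arrays with a dye term it was 0.0052 and 0.012, but the Axin2 arrays add only technical spread to that fit, so that these p-values do not measure the spread between mice alone. Over the other alternatives with a test it was 0.077 or more for Cox7c and 0.091 or more for Cox8b. Cox6a2 had an adjusted p of 0.080 or more under every alternative with a test and was never called.

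For most members the 2 pairs of mice went opposite ways. This was so for 53 of the 73 members (72.6%), compared with 55.8% of all measured genes. Other lists showed it too: 53 of 78 mitochondrial ribosomal protein genes (67.9%), 8 of 9 carriers and pores, 11 of 15 glycolysis genes and 18 of 26 assembly factors outside the naming rule went opposite ways, and 4 of 16 TCA cycle genes did. In 36 members (49.3%) the level was higher in the Rspo3 KO mouse of pair 1 and lower in that of pair 2, and in 17 the reverse. Because the dyes were exchanged between the pairs, a gene of the first kind was brighter in Cy5 on both arrays, whichever mouse was in it, which held for 29.4% of all genes. Mouse pair and dye order cannot be told apart with 1 array each. The gene-specific dye effect that the Axin2 arrays measure, where the same RNAs were exchanged, was small for the members, with a median of -0.02 and a range from -0.24 to 0.19. Taking it off left medians of 0.12 in pair 1 and -0.18 in pair 2 and opposite signs in 54 of 73 members. The dye effect of the Rspo3 KO arrays themselves was not measured, so that these values do not tell pair and dye order apart. The proliferation markers stood in the reverse order, with a median of -0.61 in pair 1 and 0.42 in pair 2, and of 8 surface colonocyte markers 4 were measured, with 0.83 and -0.12. The part of these markers in the members' ratios was not tested.

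**Figure D3:**
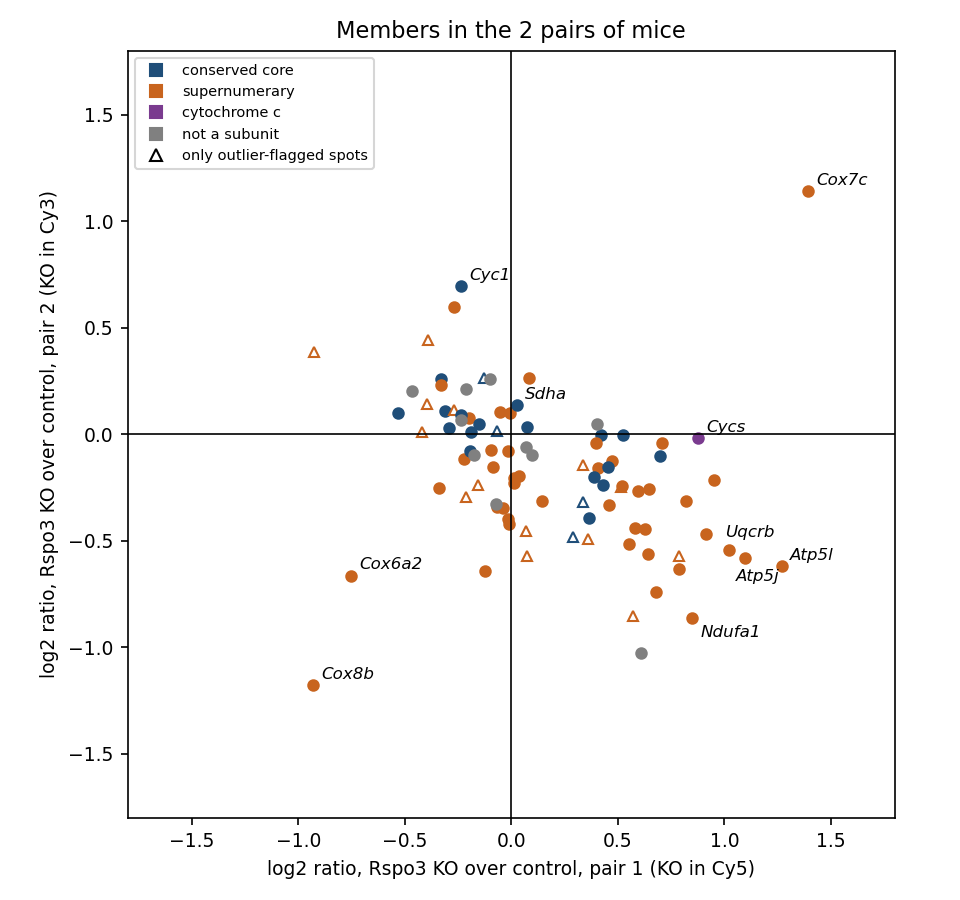
Log2 ratio of Rspo3 KO over control in pair 1 (horizontal axis) against pair 2 (vertical axis). Filled circles are the 73 measured members and open triangles the 18 members seen only through outlier-flagged spots. Many points lie at the lower right, higher in pair 1 and lower in pair 2, and Cox7c alone lies far out at the upper right, with Cox8b and Cox6a2 at the lower left.

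The opposition was widest in complex V. Atp5l was at 1.27 and -0.62, Atp5j at 1.09 and -0.58, and Atp5j2 at 0.64 and -0.26. Their means, from 0.19 to 0.33, were the highest of this complex, and Atp5g2 (-0.20 and -0.08), Atp5g1 (-0.29 and 0.03) and Atp5h (-0.08 and -0.15) had the lowest. Across the 11 measured genes of the complex the pairs had a Pearson's r of -0.94, and across 31 of complex I one of -0.61. These are descriptions over genes of the same 2 arrays.

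In complex I the highest means belonged to Ndufa9 (0.71 and -0.04), Ndufa6 (0.82 and -0.31) and Ndufc2 (0.91 and -0.47), and the lowest to Ndufa12 (-0.12 and -0.64), Ndufb8 (-0.01 and -0.42) and Ndufv1 (-0.53 and 0.10). The other 2 probes of Ndufa12, dimmer than the first, had means of 0.25 and 0.41, so that the sign of its mean turned with the probe. Of the 22 members with several measured probes in this comparison, 7 had probe means on both sides of 0, among them Atp5j2 (0.19 and -0.07), Cox7a2 (0.08 and -0.01) and Sdha (0.08 with the brightest, 0.16 and -0.06 with the others). Ndufa1 had the widest gap between the pairs of this complex, 0.85 against -0.86. Ndufa4 was at 0.46 and -0.33. No mean in complex I was past 1.5-fold in either direction.

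Complex II values were 0.03 and 0.14 for Sdha, 0.52 and 0.00 for Sdhb, and 0.70 and -0.10 for Sdhc. In complex III, Uqcrb was at 1.02 and -0.54, Cyc1 at -0.24 and 0.70, and Uqcrc2 at 0.40 and -0.04. The lowest means there were those of Uqcrq (-0.34 and -0.25), Uqcrc1 (-0.22 and -0.12) and Uqcrfs1 (0.37 and -0.39). Cycs was at 0.88 and -0.02 with its brightest probe, and its other 2 probes were higher in both pairs, at 0.92 and 0.17 and at 1.15 and 0.09.

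Beyond the 3 members past 1.5-fold, complex IV ran from Cox6b1 (0.95 and -0.21) and Cox7a2 (0.79 and -0.63) to Cox8a (-0.02 and -0.40). Cox7a1, the lowest member in Axin2+ cells, was at -0.04 and -0.35, Cox7a2l at -0.33 and 0.23, and Cox6b2 at -0.10 and -0.07. Of the 12 members past 1.5-fold lower in Axin2+ cells, 10 were measured in the Rspo3 KO pairs. In pair 1, 7 of the 10 were higher, and in pair 2, 9 were lower. Both held for 6 of the 10, against 36 of all 73 measured members (49.3%) and 29.4% of all genes. Among the 10, Ndufa1 and Uqcrq rested on other probes than in the Axin2 comparison. The genes that are no subunit ran from Atp5s, with the pairs apart at 0.61 and -1.02, and Atp5sl, at -0.07 and -0.33, to Ndufaf4 at 0.40 and 0.05, and the other 7 had means between -0.13 and 0.08.

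A loss of values touched these genes more than others in this comparison. The extraction software flags a spot where the pixels of the spot or of its background are uneven, or as a population outlier. Spots with any of these flags were left out. On each array of the Rspo3 KO pairs 22 of the 138 member probes (15.9%) were flagged, against 1.18% and 1.02% of all gene spots, and on the Axin2 arrays none was. The flags fell on the brightest spots: above a Cy5 signal of 65536 scanner units they held 51.6% and 51.7% of gene spots on the Rspo3 KO arrays and none on the Axin2 arrays. No member spot was flagged as saturated.

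**Figure D4:**
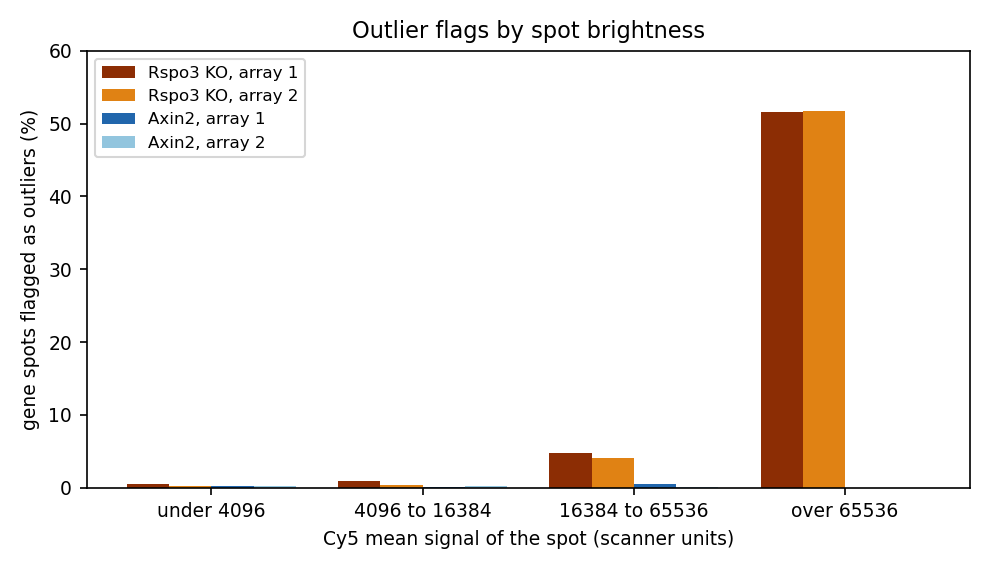
Share of gene spots flagged as outliers (vertical axis, percent) by the Cy5 mean signal of the spot (horizontal axis, scanner units), for each array. On both Rspo3 KO arrays the share passes 51% among spots over 65536, and on both Axin2 arrays it stays under 1% at every brightness.

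Because of these flags 18 of the 21 members without a Rspo3 KO value were missing, the other 3 being the isoforms without signal named above. Among the 18 were Cox4i1, Cox5a, Cox6a1, Cox6c, Atp5g3, Sdhd and Uqcrh. With the flagged spots kept, an alternative chosen after the data were seen, 16 of the 18 went opposite ways in the pairs, 2 were lower in both, and no mean exceeded 0.27 in size. Cox4i1 was then at -0.39 and 0.14, Cox5a at -0.93 and 0.39, Cox6a1 at 0.07 and -0.57, Cox6c at 0.79 and -0.57, Atp5g3 at 0.29 and -0.48, and Sdhd at -0.13 and 0.26. In 5 genes with several probes, Atp5b, Ndufa1, Ndufb8, Uqcrc1 and Uqcrq, the brightest was flagged and a dimmer one gave the value above. Kept, the brightest gave a mean of 0.18 for Ndufb8 in place of -0.22, and 0.02 for Uqcrq in place of -0.30. The medians of the then 91 members were 0.07 and -0.13.

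The other metabolic lists held no call either. Of the TCA cycle, glycolysis, carrier, mitochondrial ribosome, assembly factor and mitochondrial genome regulator genes, limma called none in the Rspo3 KO pairs, and none was past 1.5-fold in both. Their medians lay between -0.07 for the mitochondrial genome regulators and 0.11 for the carriers and pores. The mitochondrially encoded ND4 was at 1.12 and 0.59 and CYTB at 0.78 and 0.23, higher in both pairs. The Axin2 arrays had given these probes much the same values, 1.05 and 0.62 for ND4 and 0.75 and 0.24 for CYTB. Why 2 different comparisons gave such like values was not tested. The COX2 probe was at 1.79 and 0.60, and the 2 ATP6 probes at 2.55 and -0.49 and at 1.87 and -0.21. Of these 4 mitochondrially encoded genes, 2 (ND4 and COX2) were past 1.5-fold higher with both pairs alike, against 1.85% of all genes. None of the 4 was called by limma.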

How the data were processed

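The authors scanned dual-colour Agilent 4x44K arrays and extracted them with Agilent Feature Extraction 11.5.1.1; the deposited scanner files hold a mean and a background intensity per spot and channel, and a log10 ratio, which the deposited value table repeats. Here the intensities were background-corrected (limma 3.58.1 in R 4.3.3, normexp, offset 50, background outliers kept out of the fit) and loess-normalised within each array, without control and outlier-flagged spots, and ratios were turned to Rspo3 KO over control and Axin2+ over Axin2-. A gene took the value of its brightest probe, if well above background in 1 channel or more on both arrays. Probes were named through RefSeq accessions, symbols and synonyms, and the member names are those of the files. The Rspo3 KO ratios were tested against 0 with limma and Benjamini-Hochberg adjustment over all measured genes at 0.05, after a check on simulated data. Both arrays of a comparison lay on 1 slide. The number of arrays limits the precision.

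The members and gene lists were chosen with earlier results of these data known. Named were, in each comparison, members passing the test, the 3 highest and 3 lowest of each complex, isoform families and complex II, except 1 gene that is not reported here by name. Alternatives changed the ratio, background, normalisation, filter, probes and arrays.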

Additional observations from a re-analysis of the deposited data

How the results depend on the processing

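Most values kept their direction and their side of the threshold. For Axin2+ over Axin2- cells the members' median was -0.34 and 23 members were past 1.5-fold lower with the software's own log ratio or the series' value table (15.4% of all genes), and it was -0.27 with an offset of 16. Median centring in place of loess gave -0.59 but 3 members lower on both arrays past 1.5-fold (3.71% of all genes), and each array alone gave -0.25 to -0.22 and 10 to 20 members (7.88% and 6.64% of all genes). The causes were not tested. The medians of complexes I to V, of the conserved core and of the supernumerary subunits stayed negative under each of these alternatives. With median centring they average 2 arrays that differed in direction for most members with a mean past 1.5-fold lower. A lower level on both arrays therefore depended on the loess step for those members. The mean of both arrays stayed negative for each of the 12 members. Cox7a1 and Cycs were past 1.5-fold lower with both arrays alike under 10 of 10 alternatives, the others of the 12 under 8 or 9. The TCA cycle median ran from -0.16 to 0.11. For Rspo3 KO over control, limma called 2 members (Cox7c and Cox8b) with an offset of 16 and 2 with a dye term over 4 arrays, and 1 member was past 1.5-fold lower with all spots in the background fit. Leaving out either pair gave medians from -0.154 to 0.0704, 3 to 18 members higher (4.47% and 8.14% of all genes) and 2 to 8 lower (7.47% and 5.63%), with no test. Each Rspo3 KO ratio is already a difference within 1 pair of mice, so that the test is paired and no further block could be fitted.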
